A study of Mus musculus with 9 samples.

Results

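The 36 genes described here encode the machinery of the lysosome, the export of cholesterol from it and autophagy. They were chosen by name, as lysosomal hydrolases, membrane proteins, proton pump subunits, cholesterol export proteins and autophagy genes, and all 36 were among the 51810 genes measured. The RNA came from valvular interstitial cells (VICs), which build and repair the matrix of the heart valve leaflets, grown in culture from C57BL/6J mice. Aortic and mitral valves both supplied cells. The 3 groups of 3 libraries each were cells given low-density lipoprotein (LDL), its oxidised form (oxLDL) and buffer alone (Control). Both lipoproteins were given at 50 ug/mL, and all cells were collected after 24 h. All 3 groups grew in medium with serum, insulin, EGF and basic FGF. The Control libraries are also called untreated in a label. The labels give no age or number of animals, and nothing in them says that the 3 libraries of a group came from separate cultures. The p-values below therefore measure only the spread between these libraries, which may be technical.

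Values are TPM, which correct a gene's reads for its length and express them as a share of the library, scaled to the same total in each. TPM keeps no depth, so how many reads lie behind a value is unknown. Differences were taken after adding 1 TPM, as log2(TPM + 1), and so slightly understate the change of a low gene. They were tested with limma in the 13495 genes that averaged at least 1 TPM, and a gene was called where the Benjamini-Hochberg adjusted p over all those genes was under 0.05. All 36 members passed this filter on low values.

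Cells take up LDL by endocytosis and carry it to the lysosome, where acid lipase frees cholesterol from its esters. The soluble protein NPC2 hands the cholesterol to NPC1 in the lysosomal membrane, which passes it out of the organelle. A proton pump keeps the lumen acid, as the hydrolases require, and autophagy delivers the cell's own material to the same hydrolases inside a vesicle that fuses with the lysosome. TFEB and TFE3 are transcription factors that enter the nucleus when the lysosome is stressed or nutrients are short. They bind a short palindromic element, named CLEAR, in the promoters of many lysosomal genes. Oxidised LDL is taken up largely by scavenger receptors and is known to be degraded poorly in the lysosomes of macrophages.

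The cells had high levels of 10 fibroblast markers, at a summed 1.18 to 1.42% of all TPM. Markers of other cells were detected too. The summed TPM of 12 macrophage and leukocyte markers ranged from 116.9 to 810.5, that of 7 endothelial markers from 121.8 to 322.3 and that of 6 melanocyte markers from 3.3 to 20.23, and no defining marker was at 0. Genes known to answer to lipoproteins moved with LDL. Hmox1, an oxidative stress gene, averaged 356.3 TPM in LDL libraries and 138.2 TPM in Control libraries (a log2 difference of 1.34, limma adjusted p = 0.026). Of 3 more such genes, Hmgcs1 and Sqle of cholesterol synthesis fell by 1.36 and 1.37 on the log2 scale with LDL (adjusted p = 0.01 each), and Nqo1, an NRF2 target, rose by 0.996 (adjusted p = 0.037). With oxLDL against Control none of these 4 genes passed (adjusted p = 0.22 to 0.46), but their groups did not overlap. Nqo1 averaged 477.5 TPM with oxLDL and 242.5 TPM in Control (a log2 difference of 0.997). Hmox1 averaged 269.8 TPM with oxLDL and 138.2 TPM in Control (0.95). Hmgcs1 averaged 29.9 TPM with oxLDL and 58.11 TPM in Control (-0.92), and Sqle 25.24 TPM with oxLDL and 43.74 TPM in Control (-0.77).

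The 36 members made up 0.575 to 0.839% of all TPM in a library. Their summed level averaged 7365 ± 938 TPM with LDL, 6984 ± 1123 TPM with oxLDL and 6659 ± 937 TPM in Control (SD, n = 3 each), so the group means lay within 1 SD of each other. The highest members in Control cells were the aspartic protease gene Ctsd at 1008 ± 189 TPM, the membrane glycoprotein gene Lamp1 at 789.8 ± 133 TPM and the cysteine protease gene Ctsl at 626 ± 165 TPM. Next came Psap, the precursor of the saposins that present lipids to hydrolases, at 575.7 ± 78.7 TPM. The lowest were Tfeb at 16.35 ± 1.32 TPM and Atg7 at 14.88 ± 1.07 TPM. Tfe3, the gene of the factor related to TFEB, stood at 44.03 ± 2.82 TPM (SD, n = 3 each).

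No member was called in any of the 3 comparisons. Of all genes tested, 0.333% were called for LDL against Control, 0.0148% for oxLDL against Control and 0.104% for oxLDL against LDL, so fewer than 1 call among 36 genes would match these shares. With LDL against Control, 26 of 36 members had the higher mean and the median log2 difference was 0.08, against -0.002 over all genes tested. With oxLDL against Control 21 of 36 had the higher mean, with a median of 0.01 and -0.003 over all genes. With oxLDL against LDL 28 of 36 had the lower mean, with a median of -0.059 and 0.001 over all genes. Any 2 of these comparisons share the libraries of 1 group. The lowest adjusted p of a member was 0.16 for LDL against Control, 1 for oxLDL against Control and 0.33 for oxLDL against LDL. At an unadjusted p under 0.05 there were 4, 0 and 2 members in the same order (11.1, 0 and 5.56%), where 6.65, 3.86 and 3.91% of all genes reached it.

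**Figure D1:**
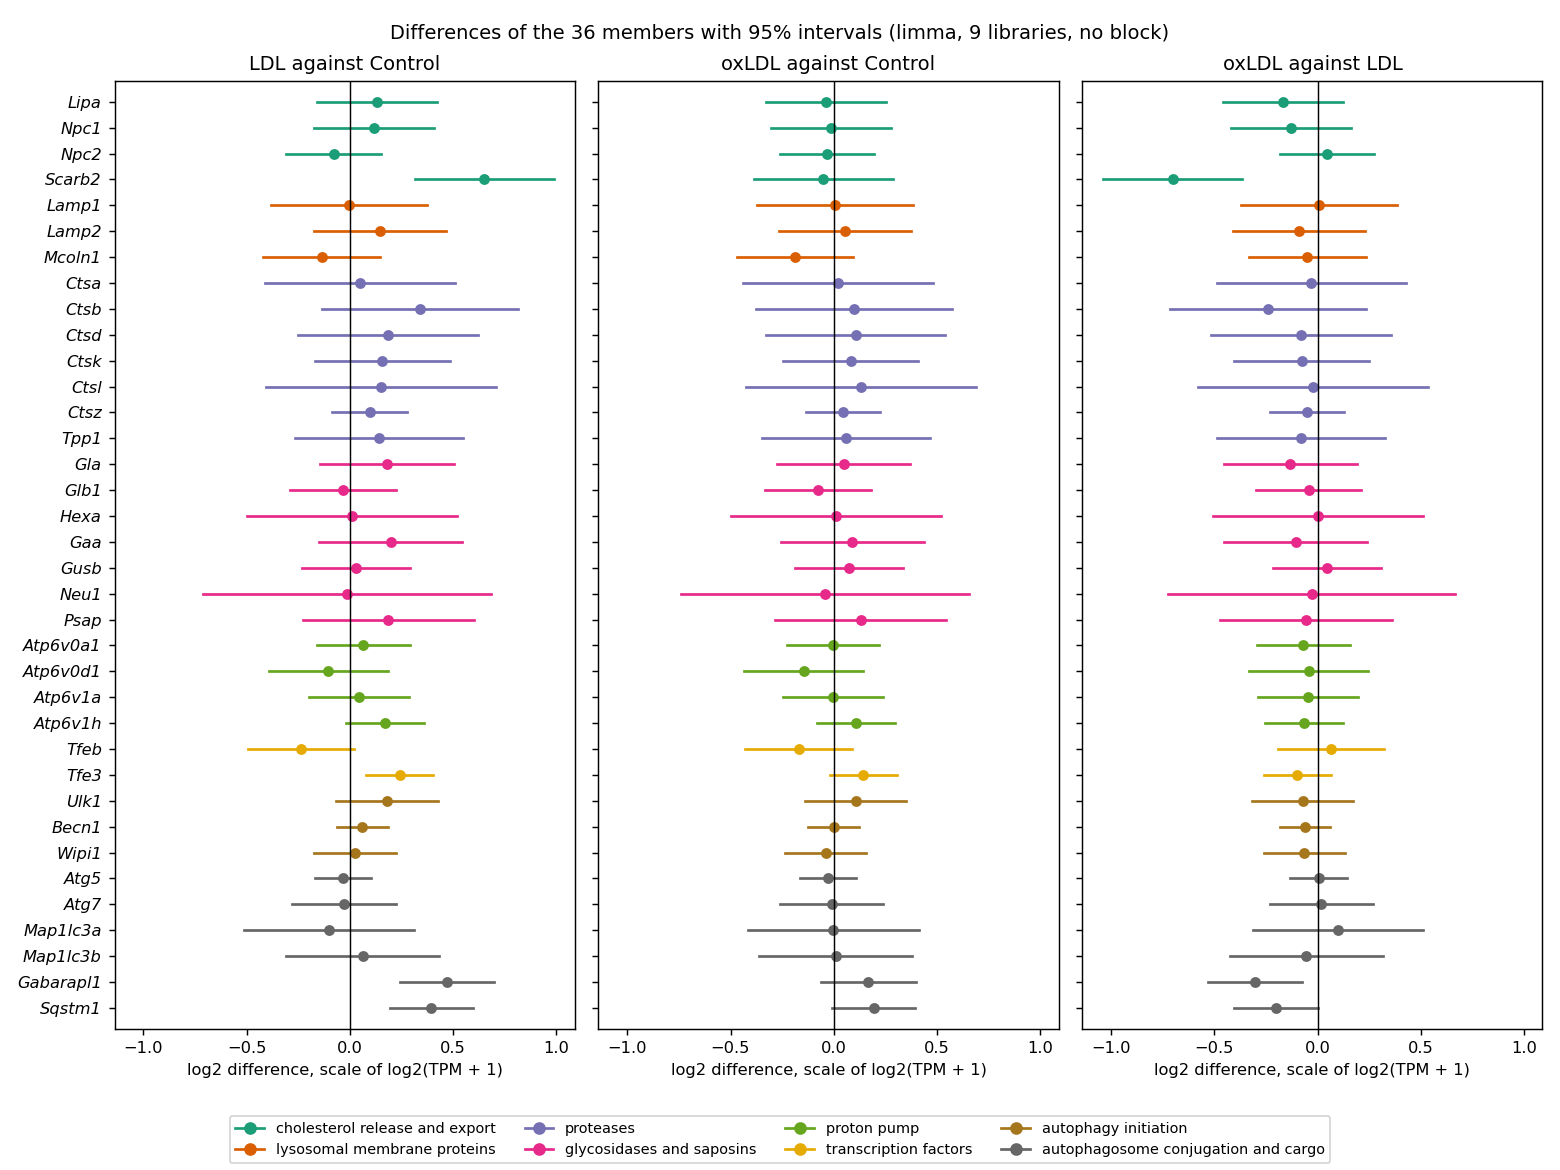
Log2 difference of each of the 36 members on the horizontal axis, on the scale of log2(TPM + 1), in 3 panels for LDL and for oxLDL against Control and for oxLDL against LDL. Points are the fitted differences, lines their 95% intervals and colours the roles. The intervals of Scarb2, Gabarapl1, Sqstm1 and Tfe3 lie above 0 for LDL against Control, those of Scarb2 and Gabarapl1 lie below 0 for oxLDL against LDL, and every interval for oxLDL against Control spans 0.

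The size of a difference that the libraries could resolve was limited. The 95% interval of a member reached a median of 0.289 to either side on the log2 scale. Of the 36 members, 30 differed by less than 0.2 with LDL against Control, all 36 with oxLDL against Control and 32 with oxLDL against LDL. These values do not show that the other members were unaffected.

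Scarb2 had the largest difference among the members. It encodes LIMP-2, a lysosomal membrane protein that carries glucocerebrosidase to the lysosome and holds a tunnel through which cholesterol can pass. The gene lies on the minus strand at chr5:92441314-92506833 (GRCm38). Scarb2 was at 216.6, 215 and 230.6 TPM with LDL, at 136, 107.7 and 168.7 TPM with oxLDL and at 153, 145.4 and 123.3 TPM in Control. All 3 LDL libraries lay above all 6 others, while the oxLDL and Control libraries overlapped. The LDL mean was 1.57 times the Control mean, a log2 difference of 0.65 with a 95% interval of 0.32 to 0.99 (limma adjusted p = 0.21). With oxLDL the mean was 0.623 times the LDL mean, a difference of -0.70 (adjusted p = 0.33), and against Control the difference was -0.05 (adjusted p = 1). Neither adjusted value passed the threshold.

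Gabarapl1 encodes a small ubiquitin-like protein that is joined to lipid on the autophagosome membrane. It was at 120.8, 114.3 and 121.8 TPM with LDL, at 103.4, 86.5 and 99.41 TPM with oxLDL and at 97.3, 84.61 and 75.64 TPM in Control. The LDL libraries again lay above all others, and the oxLDL libraries overlapped with Control. The difference was 0.47 with LDL against Control (95% interval 0.24 to 0.70, adjusted p = 0.16) and -0.30 with oxLDL against LDL (adjusted p = 0.85). Gabarapl1 lies at chr6:129533160-129542346 (GRCm38). Its exons overlap those of 1700101I11Rik on the other strand, by 377 bases at the longest single overlap of exons. The library kit does not mark strand, so reads of the overlap cannot be told apart.

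Sqstm1 encodes p62, which binds ubiquitin-tagged cargo and hands it to the autophagosome. Its level was 399.4, 409.7 and 449.3 TPM with LDL, 391.8, 342.1 and 360.8 TPM with oxLDL and 353.3, 290.7 and 313.6 TPM in Control. The LDL libraries lay above all others, with the highest oxLDL library close below the lowest LDL library. The difference was 0.40 with LDL against Control (95% interval 0.19 to 0.60, adjusted p = 0.20). With oxLDL against Control it was 0.20 (-0.01 to 0.40, adjusted p = 1), the largest oxLDL difference among the members. Sqstm1 lies at chr11:50199366-50210827 (GRCm38). Its exons overlap those of Mrnip on the other strand, by 580 bases at the longest single overlap.

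The genes of the related factors TFE3 and TFEB had differences of opposite sign. Tfe3 lies at chrX:7762560-7775202 and Tfeb at chr17:47737030-47792419 (GRCm38), both on the plus strand. Tfe3 was at 49.67, 55.9 and 51.33 TPM with LDL, at 47.54, 49.93 and 48.64 TPM with oxLDL and at 41.94, 47.23 and 42.91 TPM in Control. All libraries of each lipoprotein lay above all 3 Control libraries, and Tfe3 was the only member of which this held with oxLDL. The differences were 0.24 with LDL (adjusted p = 0.37) and 0.14 with oxLDL (adjusted p = 1). Tfeb was at 13.82, 14.06 and 13.24 TPM with LDL, at 13.67, 12.67 and 17.18 TPM with oxLDL and at 17.38, 16.8 and 14.86 TPM in Control. Here the LDL libraries lay below all 3 Control libraries, by -0.24 (95% interval -0.49 to 0.02, adjusted p = 0.81), and the oxLDL libraries spread over nearly the whole range. The activity of these factors is controlled largely by where they sit in the cell, which RNA does not show.

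**Figure D2:**
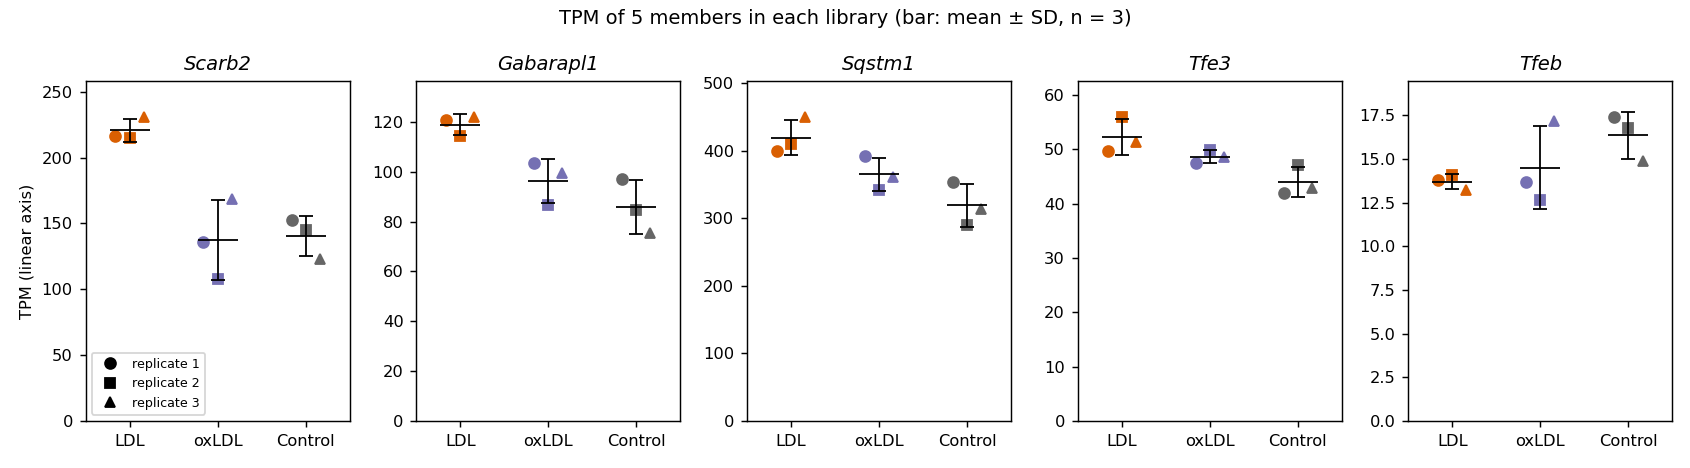
TPM on the vertical axis, linear from 0, of Scarb2, Gabarapl1, Sqstm1, Tfe3 and Tfeb in the 9 libraries, by group. Symbols mark the replicate number, and bars the mean ± SD of 3 libraries. LDL libraries lie above Control in the first 4 panels, by 1.57 times on the means for Scarb2, and below Control for Tfeb.

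Groups that did not overlap were counted for all members. With LDL against Control 5 members lay wholly higher (Scarb2, Gabarapl1, Sqstm1, Tfe3 and Npc1) and 1 wholly lower (Tfeb), which is 13.9 and 2.78% of members where all genes gave 5.61 and 5.06%. With oxLDL against Control 1 member lay wholly higher and 0 wholly lower, where all genes gave 3.5 and 3.83%. With oxLDL against LDL 4 members lay wholly lower (Scarb2, Gabarapl1, Sqstm1 and Becn1) and 0 wholly higher, where all genes gave 4.2 and 4.11%. The Npc1 separation was narrow, with 24.17, 24.14 and 24.21 TPM with LDL against 23.69, 20.83 and 22.16 TPM in Control. The Npc1 values with oxLDL, 21.99, 17.91 and 26.96 TPM, spanned both groups.

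The other members of the cholesterol route showed small differences. Lipa, the acid lipase gene, was at 131.2, 109.6 and 115.9 TPM with LDL, at 119.9, 91.06 and 107 TPM with oxLDL and at 126.6, 98.83 and 100.7 TPM in Control. Its groups overlapped in every comparison, and its difference was 0.13 with LDL and -0.04 with oxLDL against Control. Npc2 differed by -0.08 with LDL and -0.03 with oxLDL against Control. Among the membrane proteins, Lamp1 averaged 787.8 ± 130 TPM with LDL, 792.5 ± 130 TPM with oxLDL and 789.8 ± 133 TPM in Control (SD, n = 3 each), a difference of -0.003 for LDL and 0.005 for oxLDL against Control. Lamp2, its companion glycoprotein, differed by 0.15 with LDL and 0.06 with oxLDL. Mcoln1, the calcium channel TRPML1, differed by -0.14 with LDL and -0.19 with oxLDL, the largest negative oxLDL difference among the members.

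All 7 protease genes had the higher mean with LDL and with oxLDL against Control, and none passed the threshold. Of 11 further protease genes, 8 had the higher mean with LDL and 5 with oxLDL, at medians of 0.10 and -0.006. Of the 12 macrophage markers, 12 had the higher mean with LDL and 6 with oxLDL, at medians of 0.25 and 0.03, and their part in the protease levels was not tested. Ctsb, a cysteine protease gene, had the largest LDL difference of these, 0.34 (adjusted p = 0.95). It was at 464, 312.8 and 395.9 TPM with LDL, at 369.4, 236.5 and 397.5 TPM with oxLDL and at 352.3, 274.9 and 292.6 TPM in Control, so the groups overlapped. The exons of Ctsb overlap those of Fdft1, a cholesterol synthesis gene on the other strand, by 774 bases at the longest single overlap. Those of Ctsl overlap Gm47123 on the other strand, by 977 bases at the longest. The other 6 protease genes (Ctsa, Ctsd, Ctsk, Ctsl, Ctsz and Tpp1) differed by 0.05 to 0.19 with LDL. The 7 glycosidase and saposin genes differed by -0.03 to 0.20 with LDL and by -0.08 to 0.13 with oxLDL against Control. At the ends of the LDL range were Glb1, the beta-galactosidase gene, and Gaa, the acid alpha-glucosidase gene. Gla, Hexa, Gusb, Neu1 and Psap lay between them.

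Of the 4 proton pump subunit genes, Atp6v1h differed most with LDL, by 0.17 (adjusted p = 0.81). It was at 122.2, 106.2 and 112 TPM with LDL, at 115.1, 98.5 and 111.8 TPM with oxLDL and at 106.9, 95.29 and 99.45 TPM in Control. Each of its LDL and oxLDL libraries exceeded the Control library of the same replicate number. With LDL this held for many other members too, among them Lipa, Lamp2, Ctsd and Gaa, so it was not particular to Atp6v1h. Atp6v0d1, of the membrane domain of the pump, differed by -0.10 with LDL and -0.15 with oxLDL. Each of its lipoprotein libraries lay below the same-numbered Control library, as with LDL also held for Mcoln1, Glb1 and Tfeb. Such agreement was not counted over all genes. Atp6v0a1 and Atp6v1a differed by 0.07 and 0.05 with LDL. The genes that start autophagy differed by 0.18 for Ulk1, a protein kinase gene, 0.06 for Becn1, a scaffold of the lipid kinase complex, and 0.03 for Wipi1, which binds the lipid that this complex makes. Becn1 was at 125.7, 125.9 and 127.1 TPM with oxLDL and at 134.1, 129.1 and 132.4 TPM with LDL, a separation of -0.06. Its exons overlap those of Cntd1 on the other strand, by 1297 bases at the longest single overlap.

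Atg5 and Atg7, which join the ubiquitin-like proteins to lipid, differed by -0.03 each with LDL. Atg5 was the steadiest member, at 23.21, 22.78 and 23.43 TPM with LDL, 23.17, 23.71 and 22.78 TPM with oxLDL and 23.18, 23.74 and 24.16 TPM in Control. Map1lc3b encodes LC3B, the usual marker protein of autophagosomes, and differed by 0.06 with LDL and 0.01 with oxLDL against Control. Map1lc3a differed by -0.10 with LDL, with an interval of -0.51 to 0.31, and ranged from 104.5 to 176 TPM over Control libraries alone. RNA levels of these genes do not measure the flow of material through autophagy.

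The replicate number went with more of the members' spread than the treatment did. The sum of squares of each gene over the 9 libraries was split into a part between treatments, a part between replicate numbers and a remainder. The replicate number took a median of 70.1% over the members and the treatment 12.7%, against 44.2 and 16.9% over all genes tested. It took over 50% in 24 of 36 members (66.7%) and in 43.0% of all genes. No test of these shares was made, and the members are not independent of each other.

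**Figure D3:**
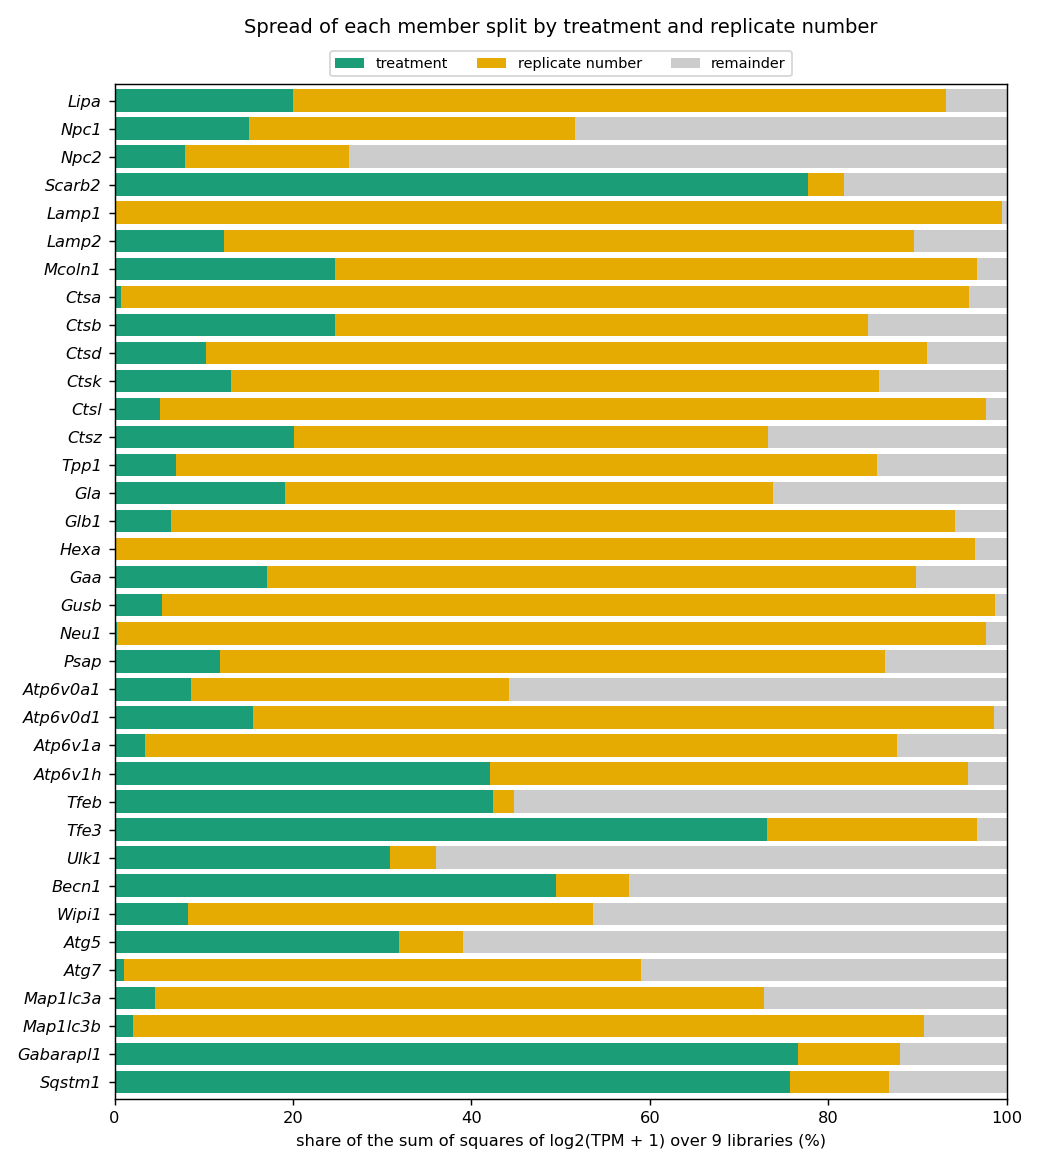
Share of the sum of squares of log2(TPM + 1) over 9 libraries, in percent on the horizontal axis, by treatment, replicate number and remainder, for each of the 36 members. Replicate number takes over 50% in all 7 proteases and all 7 glycosidases and saposins. Treatment takes over 50% in Scarb2, Tfe3, Gabarapl1 and Sqstm1.

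The replicate number took over 50% of the spread in all 7 protease genes, all 7 glycosidase and saposin genes, all 3 genes of membrane proteins and 3 of 4 proton pump genes. Its median share was 87.9% among glycosidase and saposin genes and 8.17% among the 3 genes that start autophagy. Treatment took over 50% in 4 members, Scarb2 (77.7%), Gabarapl1 (76.6%), Sqstm1 (75.8%) and Tfe3 (73.1%). This is 11.1% of the members, where 11.4% of all genes had such a share. Lamp1 stood at the other end, with 99.4% on the replicate number and 0.03% on treatment. Its 3 replicates had 930.4, 676.5 and 756.7 TPM with LDL, 925.1, 664.7 and 787.6 TPM with oxLDL and 931.2, 666.6 and 771.5 TPM in Control. The libraries of replicate 1 were thus highest and those of replicate 2 lowest under every treatment.

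Replicate 1 had the highest level under every treatment in 20 of 36 members (55.6%) and in 11.8% of all genes. Replicate 2 had the lowest under every treatment in 16 of 36 (44.4%) and in 8.08% of all genes. Neu1, the sialidase gene, ranged most between replicate numbers, by 0.88 on the log2 scale. It was at 26.26, 13.94 and 16.81 TPM with LDL, at 24.68, 12.83 and 18.21 TPM with oxLDL and at 26.99, 14.33 and 16.36 TPM in Control. Ctsl was at 904.7, 587.9 and 595.3 TPM with LDL, at 891.3, 539.9 and 629.1 TPM with oxLDL and at 815.8, 539.8 and 522.3 TPM in Control. Map1lc3a departed from the pattern, with replicate 3 lowest under every treatment.

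Markers of other cell types moved with the replicate number as well. Over the libraries of replicates 1, 2 and 3 the summed macrophage and leukocyte markers averaged 627.9, 211.9 and 652.6 TPM. Replicate 2 was thus low, and replicates 1 and 3 were close in this sum. The sum rested largely on Lyz2, at 540.8 of 791.7 TPM in LDL replicate 1. Of the 12 markers, 3 had their highest average in replicate 1, against 27 of the 36 members and 28.1% of all genes. Replicate 2 was lowest under every treatment in 11 of the 12 markers, against 16 of the 36 members and 8.08% of all genes. The endothelial markers averaged 303.9, 125.5 and 163.4 TPM, with replicate 1 high, and 6 of the 7 had their highest average there. The summed fibroblast markers averaged 13270, 12570 and 12850 TPM. Among them Postn and Thy1 ranged by 1.587 and 1.075 on the log2 scale between replicate numbers, with replicate 1 highest under every treatment. The median of this range was 0.265 over the 10 fibroblast markers and 1.065 over the 7 endothelial ones. The summed members averaged 8023, 6110 and 6874 TPM over replicates 1, 2 and 3. By treatment, the macrophage markers averaged 564.6 ± 276 TPM with LDL, 499 ± 352 TPM with oxLDL and 428.9 ± 146 TPM in Control (SD, n = 3 each), and all 12 had the higher mean with LDL against Control. Macrophages are rich in lysosomes, and the part of these cells in the members' levels was not tested. In bulk RNA, fewer cells of a type and less RNA per cell cannot be told apart.

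**Figure D4:**
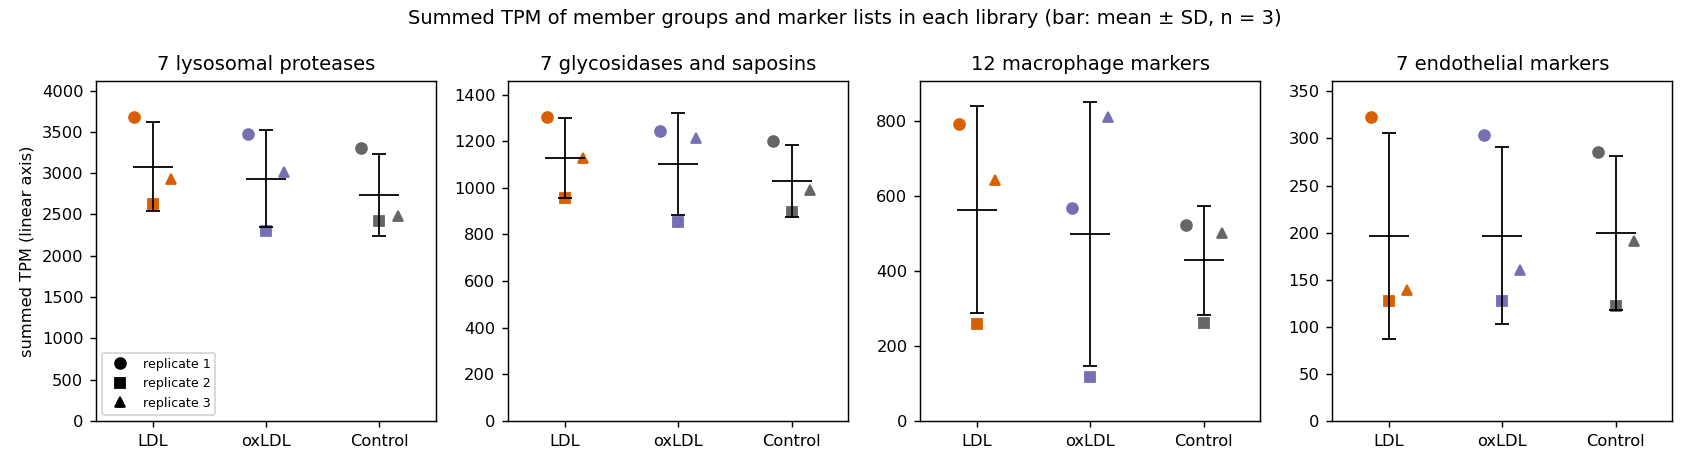
Summed TPM on the vertical axis, linear from 0, of the 7 lysosomal proteases, the 7 glycosidases and saposins, 12 macrophage and leukocyte markers and 7 endothelial markers in the 9 libraries, by group. Symbols mark the replicate number, and bars the mean ± SD of 3 libraries. Replicate 2 is lowest in every group and panel, and replicate 1 is highest in every group except in the macrophage panel with oxLDL.

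With the replicate number as a block in the limma fit, still no member was called, where 0.852, 0.126 and 0.259% of all genes were called in the LDL comparison with Control, the oxLDL comparison with Control and that of oxLDL with LDL. The median interval of a member narrowed to 0.163 to either side. The lowest adjusted p was 0.054 for LDL against Control, held by Gabarapl1, and 0.062 for Sqstm1, 0.081 for Tfe3 and 0.11 for Scarb2. It was 0.37 for oxLDL against Control and 0.17 for oxLDL against LDL. At an unadjusted p under 0.05 the block gave 12, 6 and 4 members (33.3, 16.7 and 11.1%), where 13.1, 9.08 and 8.51% of all genes reached it. For LDL against Control these were 10 higher members (Lipa, Scarb2, Ctsb, Ctsd, Ctsl, Gaa, Atp6v1h, Tfe3, Gabarapl1 and Sqstm1) and 2 lower ones (Mcoln1 and Atp6v0d1). For oxLDL against Control Ctsl, Atp6v1h, Tfe3 and Sqstm1 were higher, and Mcoln1 and Atp6v0d1 lower. The 4 members for oxLDL against LDL were all lower (Lipa, Scarb2, Gabarapl1 and Sqstm1).

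Promoter sequences are shown because many members moved together between replicate numbers, and the CLEAR element is a known shared feature of lysosomal genes. RefSeq windows of 300 bases (GRCm38.p6), from 250 before to 50 after a start site, were at hand for 31 of 36 members. The core TCACGTG, searched on both strands, was in the windows of 10 of 31 members (32.3%), where 7.08% of 9673 tested genes with a window and 3.77% of all 32851 windows held it. The palindrome TCACGTGA, which contains the core, was in 6 of 31 (19.4%), against 2.22% of tested genes and 0.974% of all windows. A match describes the letters and does not show that a factor binds. The stretches around the palindrome follow, with the palindrome in capitals, on the strand of the gene. The Ctsa and Gla windows each hold a second palindrome, outside the stretch shown, at bases 5 to 12 after the start of Ctsa and at -195 to -188 from that of Gla.
Mcoln1 (chr8:3500453-3500500, plus strand): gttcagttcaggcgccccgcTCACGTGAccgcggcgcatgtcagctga
Ctsd (chr7:142387899-142387946, minus strand): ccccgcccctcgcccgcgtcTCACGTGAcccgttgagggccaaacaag
Ctsa (chr2:164833740-164833772, plus strand): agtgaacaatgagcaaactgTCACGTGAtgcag
Gla (chrX:134601206-134601253, minus strand): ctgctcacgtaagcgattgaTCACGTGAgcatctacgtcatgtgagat
Atp6v0d1 (chr8:105566050-105566079, minus strand): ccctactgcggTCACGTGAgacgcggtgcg
Atp6v1a (chr16:44139364-44139411, minus strand): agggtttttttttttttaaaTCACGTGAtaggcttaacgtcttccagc

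In the Atp6v0d1 stretch the palindrome spans the start site itself. Ctsd was the highest member, and 80.9% of its spread went with the replicate number. The share was 83.0% for Atp6v0d1, 84.3% for Atp6v1a, 94.99% for Ctsa, 71.9% for Mcoln1 and 54.7% for Gla. The other 4 members with a core have it without the palindrome. Their stretches are shown with the core, on either strand, in capitals. The Atg7 window, chr6:114670846-114671145, lies inside the annotated gene, chr6:114643097-114860614 on the plus strand, so its start site is an internal one. The same holds for the windows of Ctsa (gene chr2:164832873-164841032) and Atp6v1a (gene chr16:44085402-44139705), and for that of Atp6v0a1, which is not shown. The Ctsd stretch also lies inside its annotated gene, chr7:142375911-142388038, and the Mcoln1 stretch does so in part.
Lamp1 (chr8:13159081-13159160, plus strand): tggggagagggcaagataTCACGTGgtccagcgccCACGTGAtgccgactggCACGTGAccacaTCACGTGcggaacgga
Glb1 (chr9:114401009-114401055, plus strand): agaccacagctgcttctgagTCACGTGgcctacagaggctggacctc
Gaa (chr11:119267802-119267848, plus strand): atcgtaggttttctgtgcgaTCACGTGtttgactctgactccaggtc
Atg7 (chr6:114670943-114670989, plus strand): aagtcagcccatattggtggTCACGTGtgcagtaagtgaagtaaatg

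The 80 bases before the start of Lamp1 hold 4 separate copies, the most in any member's window. The 10 members with a core had a median of 81.9% of their spread on the replicate number, and it was over 50% in all 10. For the 21 members whose windows hold none the median was 53.0%, and it was over 50% in 11. The core goes with role, as it was in neither transcription factor gene and in neither autophagy initiation gene with a window. Among the 7 glycosidase and saposin genes, Gla, Gaa and Glb1 with a core had shares of 54.7, 72.6 and 88.0%. Psap, Gusb, Hexa and Neu1 without it had shares of 74.6, 93.3, 96.4 and 97.4%. In the proton pump role the shares were 83.0 and 84.3% for Atp6v0d1 and Atp6v1a with a core. The share was 35.7% for Atp6v0a1, the only gene of that role known to lack it, as Atp6v1h had no window. Among proteases, Ctsa and Ctsd with a core had 94.99 and 80.9%, and Ctsk, Ctsl, Ctsz and Tpp1 without it 72.6, 92.6, 53.0 and 78.6%. Among membrane proteins, Lamp1 and Mcoln1 with a core had 99.4 and 71.9%, and Lamp2 without it 77.3%. Atg7 with a core had 58.0%, and Atg5, Sqstm1, Gabarapl1 and Map1lc3b of its role without it 7.2, 11.1, 11.4 and 88.6%. With LDL against Control the median log2 difference was 0.02 in the 10 members with a core, in a range of -0.14 to 0.20. It was 0.13 in the 21 without, in a range of -0.24 to 0.65. These shares and medians are descriptions, and a link of the core to the replicate number or to treatment was not tested.

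**Figure D5:**
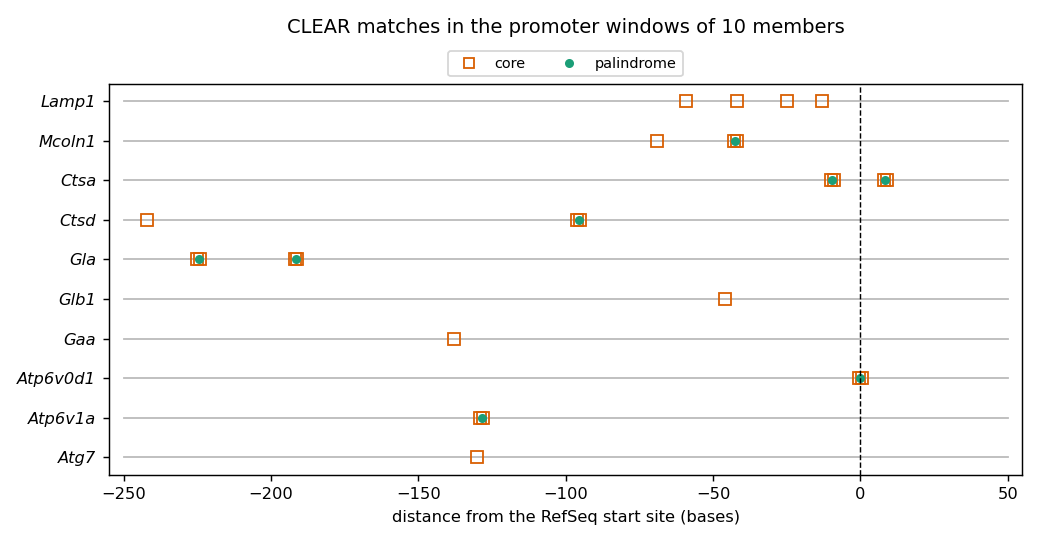
Positions of the CLEAR core (open squares) and palindrome (filled circles) in the promoter windows of 10 members, as distance in bases from the RefSeq start site on the horizontal axis. Each line is 1 gene and the dashed line the start site. Lamp1 has 4 cores within 80 bases before its start, and a palindrome gives overlapping squares because the core reads on both strands.

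The 4 members with a window and the largest higher means with LDL are shown for contrast, by the 100 bases before their RefSeq start sites. The Scarb2 and Tfe3 bases shown lie inside the annotated genes, and those of Gabarapl1 and Sqstm1 do so in part. None of these windows holds the core. Capitals in Scarb2 mark a match to TGACNNNGC, the core of the antioxidant response element that NRF2 binds, also searched on both strands. This motif was in 9 of 31 members (29.0%), against 16.9% of tested genes with a window and 12.4% of all windows. The windows of Gabarapl1, Sqstm1 and Tfe3 do not hold it. Beside Scarb2 it was in those of Ctsd, Ctsz, Hexa, Map1lc3b, Psap, Tpp1, Atp6v0a1 and Atp6v1a. These members differed by 0.01 (Hexa) to 0.19 (Psap) with LDL against Control.
Scarb2 (chr5:92505658-92505757, minus strand): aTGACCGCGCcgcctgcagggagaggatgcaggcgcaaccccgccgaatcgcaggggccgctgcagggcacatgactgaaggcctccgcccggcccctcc
Gabarapl1 (chr6:129533092-129533191, plus strand): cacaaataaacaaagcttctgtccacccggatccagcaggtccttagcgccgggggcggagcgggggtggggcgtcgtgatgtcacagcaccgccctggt
Sqstm1 (chr11:50210821-50210920, minus strand): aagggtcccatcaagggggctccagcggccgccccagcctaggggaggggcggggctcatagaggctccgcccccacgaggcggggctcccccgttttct
Tfe3 (chrX:7762561-7762660, plus strand): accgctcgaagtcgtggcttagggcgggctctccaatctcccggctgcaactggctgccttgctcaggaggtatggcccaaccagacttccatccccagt

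A list of 135 further genes of the same roles was tested as well. No gene of it was called in any comparison without the block. Its median log2 difference was 0.02 with LDL against Control, -0.02 with oxLDL against Control and -0.04 with oxLDL against LDL, and the replicate number took a median of 59.1% of the spread. The core TCACGTG was in 22 of its 105 genes with a window. At an unadjusted p under 0.05 there were 2 of 135 genes in each comparison (1.48%), below the 6.65, 3.86 and 3.91% of all genes, and with the block 7, 4 and 6 genes, below 13.1, 9.08 and 8.51%. With the block 1 of the 135 genes was called, Tmem97, which fell with LDL against Control, where 0.852% of all genes were called. It encodes the sigma-2 receptor, a membrane protein that binds NPC1. Tmem97 was at 54.24, 58.47 and 54.14 TPM with LDL, at 69.26, 79.04 and 60.16 TPM with oxLDL and at 79.9, 84.81 and 77.92 TPM in Control. The LDL libraries lay below all others. The difference was -0.53 (limma adjusted p = 0.082, and 0.016 under the block) and 0.31 with oxLDL against LDL (adjusted p = 0.80 and 0.17).

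The other further genes with the lowest p differed less, and none passed. With LDL against Control these were Sidt2, a lysosomal membrane protein gene, at 0.25 (adjusted p = 0.70), and Nbr1, a cargo receptor gene like Sqstm1, at 0.17 (adjusted p = 0.80). Nbr1 was at 58.88, 66.5 and 59.22 TPM with LDL and at 54.35, 55.36 and 53.57 TPM in Control, with no overlap. With oxLDL against Control they were Tmem55b, a lysosomal membrane phosphatase gene, at -0.19, Tmem97 at -0.22 and Osbpl1a, a sterol-binding protein gene, at -0.16. With oxLDL against LDL, beside Tmem97, they were Gabarapl2 at -0.18 and Gnptab at 0.16. Gabarapl2 is a paralog of Gabarapl1, and Gnptab helps to build the mannose 6-phosphate tag that sorts hydrolases to the lysosome. Gabarapl2 was at 84.97, 83.24 and 79.48 TPM with oxLDL and at 97.66, 90.14 and 93.4 TPM with LDL, again with no overlap. Of the 135 further genes, 2.22% lay wholly higher and 2.96% wholly lower with LDL against Control, where all genes gave 5.61 and 5.06%. For oxLDL against LDL these shares were 2.22 and 1.48%, where all genes gave 4.11 and 4.2%.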

How the data were processed

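RNA from 9 libraries (3 each of LDL, oxLDL and Control) had been read in 100-base pairs from amplified cDNA, per the labels' protocols, using a kit without strand marking. The authors deposited TPM for 51810 genes, and the submitters' processing notes name STAR (no version), RSEM 1.3.1 and the build mm10. Their annotation was not given in the sources used here. Column sums were 999998.81 to 1000000.43, and depth is unknown.

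The members and lists were chosen with earlier results of these data known. Genes named beyond the 36 members were Hmgcs1, Sqle, Nqo1 and Hmox1, and the further genes called with or without the block and the 3 with the lowest p per comparison. A gene that this rule also names is not reported here. Log2(TPM + 1) of the 13495 genes averaging at least 1 TPM (38315 left out) was fitted in R 4.3.3 by limma 3.58.1 (group means, contrasts, eBayes with trend, two-sided, 6 residual degrees of freedom, 95% intervals). The fit was checked on simulated data without pairing of libraries and with changes larger than any member's. That check does not cover differences of the sizes seen in the members. Permuting 3 against 3 libraries cannot give a p below 0.1, so no permutation test was run. Library deviations from their group's mean had correlations of 0.172 to 0.497 between same-numbered libraries (9 pairs) and of -0.309 to 0.13 between others (18 pairs). Same-numbered libraries thus deviated together, though the labels do not say what a replicate number marks. The main fit leaves this out, and the block fit takes it in. The block fit has 4 residual degrees of freedom. Gene positions and overlaps came from GENCODE M21 (GRCm38), promoters from RefSeq (GRCm38.p6). Figures were drawn with matplotlib 3.10.9.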

Additional observations from a re-analysis of the deposited data

How the results depend on the processing

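No member passed the threshold under any of 17 other settings of each comparison: pseudocounts of 0.1 and 5, no filter and a filter of 5 TPM, median-ratio scaling, quantile normalization, the replicate block, the 6 compared libraries alone, and each library left out. With the replicate block the count of called members stayed at 0, and the number at an unadjusted p under 0.05 was 12, 6 and 4, against 4, 0 and 2 without it, for LDL and then oxLDL against Control and for oxLDL against LDL. Over all settings these numbers ranged from 4 to 12, 0 to 6 and 1 to 4, and the lowest adjusted p of a member was 0.054, 0.37 and 0.09. The medians ranged from 0.03 to 0.21, -0.04 to 0.13 and -0.14 to 0.05, so those of the last 2 comparisons changed sign with the setting. Of 1836 single values, 133 had the opposite sign to the one reported, none of them for a member whose reported difference exceeded 0.153 in size. Scarb2 kept 0.56 to 0.72 with LDL against Control, Gabarapl1 0.39 to 0.57, Sqstm1 0.33 to 0.47 and Tfe3 0.20 to 0.29. Leaving out oxLDL replicate 2 turned Scarb2 in oxLDL against Control to 0.11. With 3 libraries a group and depth unknown, small differences could not be resolved, for members at high levels as well as low ones.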

Other observations

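Ratios of TPM between related genes within a library were taken after their values were seen, and are given as values with no test. Gabarapl1 over its more abundant paralog Gabarap stood at 0.235, 0.251 and 0.281 with LDL, at 0.208, 0.208 and 0.223 with oxLDL and at 0.193, 0.181 and 0.171 in Control, and the 3 groups did not overlap. Gabarap itself was at 513.3, 455.5 and 433.3 TPM with LDL, at 496.1, 416.4 and 444.9 TPM with oxLDL and at 503.8, 468.6 and 443.5 TPM in Control. Gabarapl1 over Map1lc3b was 0.575, 0.690 and 0.744 with LDL, 0.505, 0.583 and 0.595 with oxLDL and 0.467, 0.515 and 0.518 in Control, where the oxLDL ratios overlapped both other groups. Sqstm1 over Map1lc3b was 1.90, 2.47 and 2.74 with LDL, 1.91, 2.31 and 2.16 with oxLDL and 1.70, 1.77 and 2.15 in Control, and all 3 groups overlapped. Scarb2 over Lamp1 was 0.285 ± 0.0458 with LDL, 0.174 ± 0.0353 with oxLDL and 0.181 ± 0.0324 in Control (SD, n = 3 each). Scarb2 over Lamp2 was 0.749 ± 0.102 with LDL, 0.488 ± 0.0611 with oxLDL and 0.526 ± 0.0715 in Control (SD, n = 3 each). Tfe3 over Tfeb was 3.59, 3.98 and 3.88 with LDL, 3.48, 3.94 and 2.83 with oxLDL and 2.41, 2.81 and 2.89 in Control, with the LDL ratios above all Control ratios.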
